A study of Mus musculus with 6 samples.

Results

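The 9 genes described here are the T helper 1 (Th1) pathway genes Tbx21, Eomes, Stat4, Ifng, Ifngr1, Ifngr2, Il12rb1, Il12rb2 and Cxcr3, measured in T helper 2 (Th2) cultures with and without Eos. They were taken by symbol from a table of 14868 genes, all 9 had a row, and all 9 passed the filter on low values. Eos is a zinc finger transcription factor of the Ikaros family, encoded by Ikzf4. The cells were CD4+ T cells that had not met antigen, from wild-type (WT) or Ikzf4-/- mice, both of the C57BL/6J background. All were grown for 3 days (72 h) on plates coated with anti-CD3 (5 µg/mL) and anti-CD28 (2 µg/mL), in medium with 10 ng/mL interleukin-4 and 10 µg/mL of an antibody against interferon gamma. Total RNA gave 3 libraries of each genotype. How the mutant allele was made and whether each library came from a separate mouse are not given in the sources used here, so p-values measure the spread between these libraries, which may be technical.

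Th1 cells are the helper cells that make interferon gamma. In their development interleukin-12 binds a receptor made of the Il12rb1 and Il12rb2 chains and activates STAT4, and the T-box factor T-bet, encoded by Tbx21, turns on Ifng and Cxcr3. Interferon gamma in turn signals through the Ifngr1 and Ifngr2 chains to raise T-bet further, while interleukin-4 and GATA3 oppose this route. The question was whether loss of Eos lifts this programme under Th2 conditions, where interleukin-4 is supplied and interferon gamma is blocked.

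The values are normalized read counts, and the implied depth was between 34701390 and 40604346 reads in each library. Ikzf4 itself, the check of the labels, was at 756, 499.6 and 483 in WT replicates 1 to 3 and at 25.2, 10.5 and 38.2 in the Ikzf4-/- replicates. On the first principal component (40.2% of the variance) Ikzf4-/- replicates 1 to 3 lay at 11.1, 17.1 and 30.8, and every WT library lay below 0. WT replicate 1 lay at -41.3, apart from the other WT libraries at -12.5 and -5.26, so results that it moves are given with and without it. The 5 CD4 T cell markers (Cd3d, Cd3e, Cd3g, Cd4 and Cd28) summed to between 62803 and 66245 in every library. The myeloid markers Lyz2, Csf1r, Itgam, Cd14 and Adgre1, the B cell marker Ms4a1, and the natural killer (NK) cell markers Ncr1, Klrb1c, Klre1 and Klra8 had no row in the table and were not analysed here.

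No member was higher in Ikzf4-/- cells by the test used, and none was lower. Limma called 0 of the 9 at a Benjamini-Hochberg adjusted p under 0.05, where 263 of 14864 genes (1.77%) were called. Of all genes 1.20% were called as lower (178) and 0.572% as higher (85), or 154 and 115 genes with equal library totals. Without adjustment 3 of the 9 had a p under 0.05, beside 18.1% of all genes. Il12rb1 and Il12rb2, 2 of the 9, had an adjusted p under 0.05 in the authors' deposited table, both lower in Ikzf4-/- cells, where 6.34% of genes with an adjusted p were called and 3.89% were called as lower. WT and Ikzf4-/- values were fully separated for 3 members, Stat4, Il12rb1 and Il12rb2, beside 23.1% of all genes tested. The median log2 fold change (Ikzf4-/- over WT) of the 9 was -0.04, against 0.00479 over all genes. Of their estimates 7 were below 0 and 2 above, where 48.7% of all genes were below 0.

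**Figure D1:**
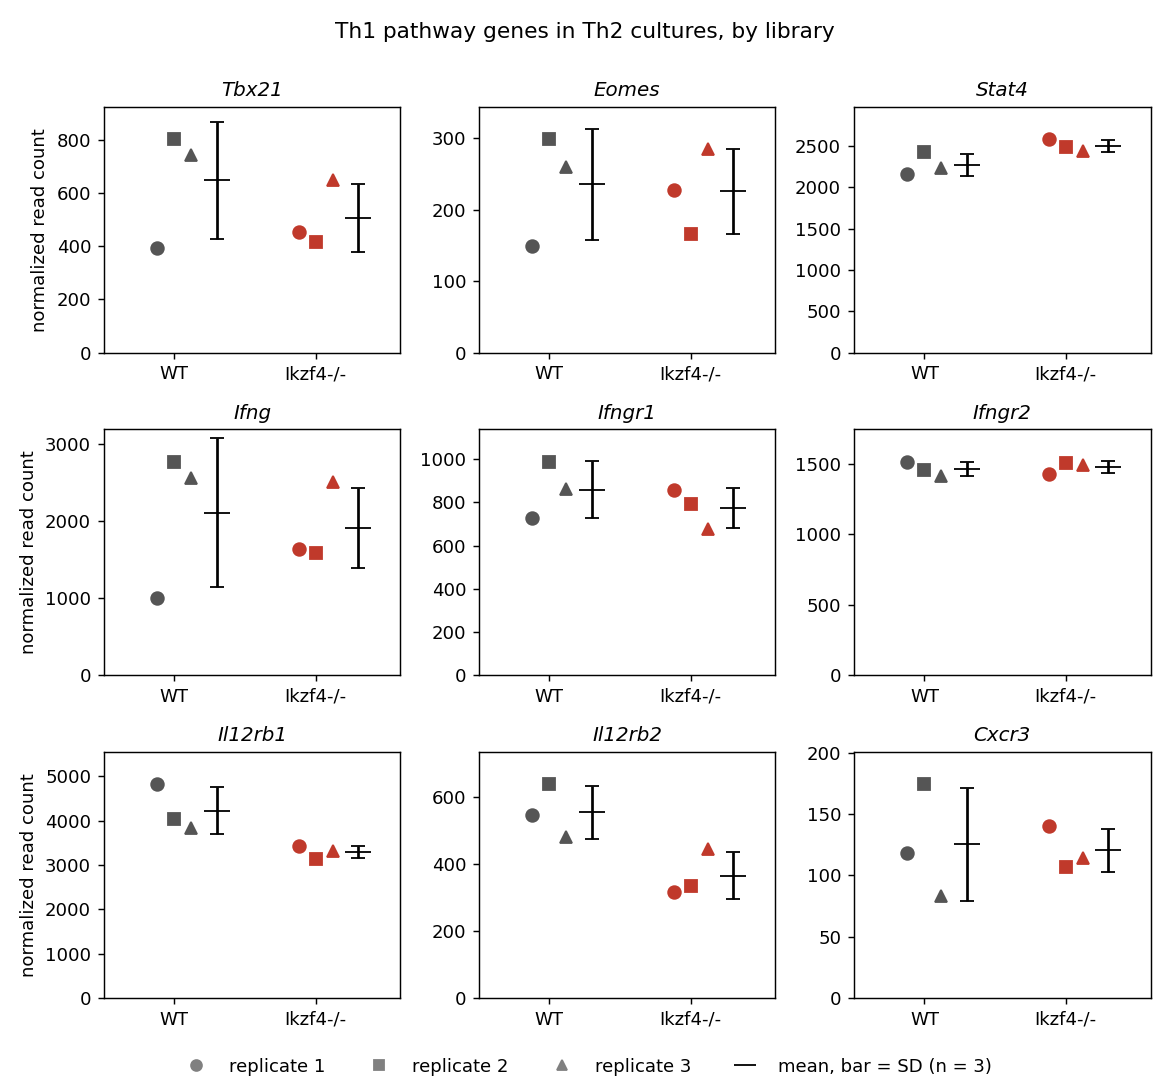
Normalized read count of each of the 9 genes in the 3 WT (grey) and 3 Ikzf4-/- (red) libraries, with each vertical axis starting at 0, the replicate shown by the symbol, and the mean and SD (n = 3) as a black bar. Il12rb1 and Il12rb2 are lower in every Ikzf4-/- library than in any WT library, Stat4 is higher in each, and Tbx21, Eomes and Ifng spread widely within both genotypes.

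The clearest separation was in the interleukin-12 receptor. Il12rb1 (ENSMUSG00000000791, chromosome 8, 70808449 to 70821424, plus strand, GRCm38) encodes the chain shared by the interleukin-12 and interleukin-23 receptors. It was read at 4827, 4033 and 3828 in WT cultures and 3422, 3142 and 3313 in Ikzf4-/- cultures. Every Ikzf4-/- library lay below every WT library, and WT replicate 1 was the highest of the 6. The mean was 4229 ± 528 (SD, n = 3) in WT and 3292 ± 141 (SD, n = 3) in Ikzf4-/- cells, and the estimated log2 fold change was -0.35 (SE 0.08, 95% confidence interval -0.53 to -0.18). The limma adjusted p was 0.0511, just above the threshold, at an unadjusted p of 0.000930. The authors' deposited table gave -0.36, with an adjusted p of 0.000687 that passed it. Leaving out WT replicate 1 gave a smaller log2 fold change, -0.26, that was called (limma adjusted p = 0.0414), and leaving out WT replicate 3 also gave a call (0.0221).

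Il12rb2 (ENSMUSG00000018341, chromosome 6, 67291318 to 67376188, minus strand, GRCm38) encodes the signalling chain that recruits STAT4 and is known for being kept on Th1 cells and lost from Th2 cells. It was at 544, 637 and 478 in WT cultures and at 317, 333 and 445 in Ikzf4-/- cultures. The groups did not overlap, although Ikzf4-/- replicate 3 came close to WT replicate 3. The mean was 553 ± 79.7 (SD, n = 3) in WT and 365 ± 69.9 (SD, n = 3) in Ikzf4-/- cells, with a log2 fold change of -0.61 (SE 0.14, 95% confidence interval -0.92 to -0.29). This was the largest estimate among the 9 members in size, and it also missed the threshold (limma adjusted p = 0.0621). The authors' deposited table gave -0.60 with an adjusted p of 0.00263. Without WT replicate 3 it was called (log2 fold change -0.71, limma adjusted p = 0.0367).

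Both chains of the receptor thus had intervals wholly below 0 and were called in some analyses of the same values and not in others. Il12rb1 was called in 2 and Il12rb2 in 1 of the 6 limma fits that left out 1 library, and the log2 fold change stayed negative in all 6 for each, from -0.42 to -0.26 and from -0.76 to -0.50. Per kilobase of exon the chains differed in level: the mean over 6 libraries was 916 normalized reads per kilobase for Il12rb1 and 121 for Il12rb2, at percentiles 84.2 and 44.5 of 14832 genes with a length.

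Stat4 (ENSMUSG00000062939, chromosome 1, 51987148 to 52107189, plus strand), the signal transducer below the interleukin-12 receptor, lay the other way. It was at 2156, 2423 and 2236 in WT cultures and at 2587, 2482 and 2441 in Ikzf4-/- cultures, so each Ikzf4-/- library was above each WT library. The difference was small and was not called: the means were 2272 ± 137 and 2503 ± 74.9 (SD, n = 3 each), the log2 fold change was 0.14 (95% confidence interval 0.01 to 0.27) and the limma adjusted p was 0.233, against 0.277 in the authors' deposited table. Its estimate was above 0 whichever library was left out, from 0.10 to 0.19, and was called in 0 of these 6 fits.

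**Figure D2:**
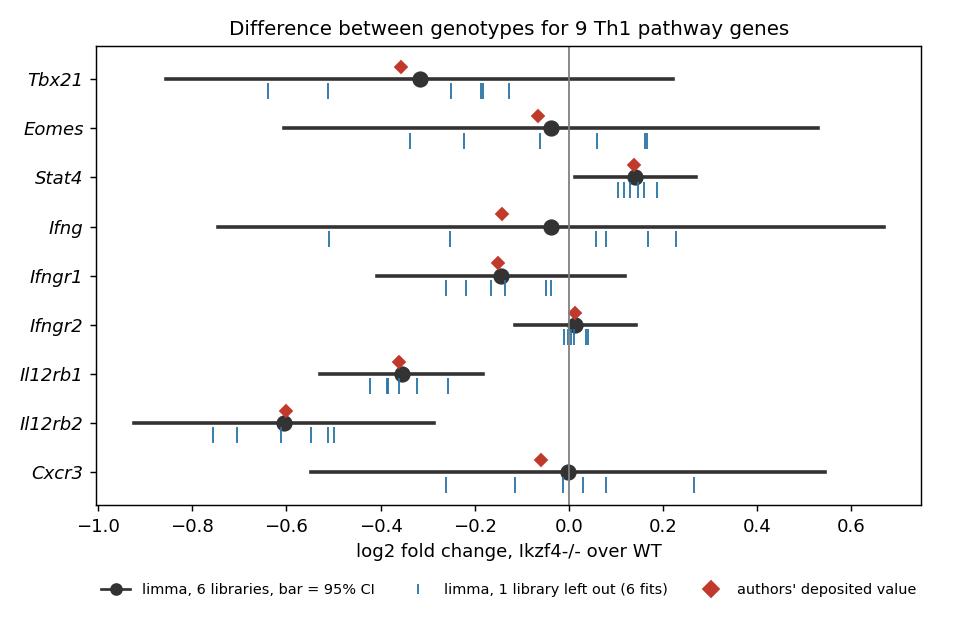
Log2 fold change (Ikzf4-/- over WT) of the 9 genes: black points and bars are the limma estimate and 95% confidence interval over 6 libraries, blue ticks the 6 estimates with 1 library left out, and red diamonds the authors' deposited values. The bars of Il12rb1 and Il12rb2 lie below 0 and that of Stat4 just above it, while the bars of the other 6 genes cross 0.

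For the Th1 lineage factor no rise was called. Tbx21 (ENSMUSG00000001444, chromosome 11, 97098071 to 97115331, minus strand) was at 395, 804 and 744 in WT cultures and at 453, 415 and 651 in Ikzf4-/- cultures. The lowest value of all belonged to WT replicate 1 and the next highest after WT replicates 2 and 3 to Ikzf4-/- replicate 3, so the groups overlapped. The means were 648 ± 221 and 506 ± 127 (SD, n = 3 each), and the log2 fold change was estimated at -0.32 (limma adjusted p = 0.544). In the fit of all 6 libraries the 95% confidence interval ran from 0.553-fold to 1.17-fold, so a larger rise lay outside it. On the log2 scale its upper limit was 0.22 in that fit and 0.45 without WT replicate 2. Without WT replicate 1 the log2 fold change was -0.64 and was not called either (limma adjusted p = 0.0583). It was -0.51 (0.412) without Ikzf4-/- replicate 3, -0.13 (0.858) without WT replicate 2, -0.18 (0.772) without WT replicate 3 and -0.19 (0.804) without Ikzf4-/- replicate 2, so its size depended on single libraries and its sign did not.

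Eomes (ENSMUSG00000032446, chromosome 9, 118478212 to 118486132, plus strand) encodes eomesodermin, the T-box factor related to T-bet that is best known from CD8 T cells and NK cells. Its values were 149, 299 and 259 in WT cultures and 227, 165 and 284 in Ikzf4-/- cultures, with WT libraries both lowest and highest. The means of 236 ± 77.8 and 226 ± 59.5 (SD, n = 3 each) differed by less than the spread within either group (log2 fold change -0.04, limma adjusted p = 0.960). The interval was wide, from 0.657-fold to 1.44-fold, and the sign turned when 1 library was left out, with estimates from -0.34 without WT replicate 1 to 0.17 without Ikzf4-/- replicate 2.

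Ifng (ENSMUSG00000055170, chromosome 10, 118441046 to 118445892, plus strand) encodes interferon gamma and lies on the chromosome of Ikzf4, 10.2 Mb away. Its RNA was plainly present in these Th2 cultures: per kilobase of exon its mean of 1555 normalized reads stood at percentile 90.7 of genes, the highest of the 9 members. The antibody in the medium acts on the secreted protein, and the table measures RNA. Ifng was at 999, 2778 and 2561 in WT cultures and at 1638, 1591 and 2518 in Ikzf4-/- cultures. The 3 Ikzf4-/- values all fell between the lowest and the highest WT value. The means were 2113 ± 971 and 1916 ± 522 (SD, n = 3 each), and the log2 fold change was estimated at -0.04 (limma adjusted p = 0.968) and an interval from 0.596-fold to 1.59-fold. Leaving out WT replicate 1 gave -0.51 (limma adjusted p = 0.121) and leaving out WT replicate 2 gave 0.23 (0.790), so single libraries set the direction. In bulk RNA, fewer cells expressing a gene and less RNA per cell cannot be told apart.

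Of the receptor chains for interferon gamma, Ifngr1 (ENSMUSG00000020009, chromosome 10, 19591949 to 19610229, plus strand), the ligand-binding chain, was at 726, 989 and 864 in WT cultures and at 856, 794 and 676 in Ikzf4-/- cultures. These overlapped, and the log2 fold change of -0.14 (95% confidence interval -0.41 to 0.12) was not called (limma adjusted p = 0.577). Its estimate was -0.26 without WT replicate 1 and -0.22 without Ikzf4-/- replicate 1, and nearer 0 without WT replicate 2 (-0.037) and without Ikzf4-/- replicate 3 (-0.049), and it was called in 0 of the 6 fits. Ifngr2 (ENSMUSG00000022965, chromosome 16, 91547072 to 91565623, plus strand), the signalling chain, varied least over the 6 libraries among the members, at 1516, 1454 and 1415 in WT cultures and at 1429, 1505 and 1492 in Ikzf4-/- cultures. Its means were 1462 ± 50.9 and 1476 ± 40.5 (SD, n = 3 each), and its interval was narrow, from 0.924-fold to 1.10-fold around an estimate of 0.01 on the log2 scale (limma adjusted p = 0.931).

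Cxcr3 (ENSMUSG00000050232, X chromosome, 101731535 to 101734269, minus strand) encodes the chemokine receptor that guides Th1 cells into inflamed tissue and is a known target of T-bet. It was the member with the fewest reads, at 118, 174 and 83.5 in WT cultures and at 140.2, 107 and 115 in Ikzf4-/- cultures. All 3 Ikzf4-/- values lay inside the WT range. The log2 fold change of -0.00166 (limma adjusted p = 0.999) turned positive with upper quartile scaling and with equal library totals, and the interval from 0.684-fold to 1.46-fold leaves moderate differences in either direction undetected.

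Tbx21, Eomes and Ifng followed the library more than the genotype. All 3 were low in WT replicate 1 and in Ikzf4-/- replicate 2, and high in WT replicates 2 and 3 and in Ikzf4-/- replicate 3. Over the 6 libraries the log2 values of Tbx21 and Ifng had a Pearson r of 0.928 and a Spearman rho of 1, those of Tbx21 and Eomes 0.908 and 0.943, and those of Eomes and Ifng 0.934 and 0.943. These are descriptions over 6 points that share their library. With WT replicate 1 left out, r was 0.986, 0.882 and 0.883 for the same pairs, and for deviations from the genotype means it was 0.990, 0.964 and 0.934. For the interleukin-12 receptor chains the likeness hung on WT replicate 1. Il12rb1 had r of -0.01 to Tbx21 and -0.38 to Ifng, but 0.838 and 0.740 without that library and -0.71 and -0.80 for deviations from the genotype means. Il12rb2 had r of 0.559 to Tbx21 and 0.242 to Ifng, and 0.946 and 0.934 without that library, but 0.474 and 0.392 for deviations from the genotype means. Cxcr3 had r of 0.083 to Tbx21 and 0.057 to Ifng, and 0.081 and 0.060 without it.

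Genes most like these were then taken by the highest Pearson r over the 6 libraries among 11599 genes with a mean of at least 50. For Tbx21 they were Stk32c (r = 0.998), N4bp2os (0.991) and Irf1 (0.981), the last encoding a transcription factor known to be induced by interferon gamma. For Ifng they were Nkg7 (0.990), which encodes a cytotoxic granule protein, Serpinb9 (0.988), which encodes an inhibitor of granzyme B, and Angel1 (0.978). None of these 6 genes was called between genotypes. By the same measure Ifng was at rank 43 for Tbx21, and Tbx21 at rank 40 for Ifng. With so few libraries, many genes reach a high r.

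**Figure D3:**
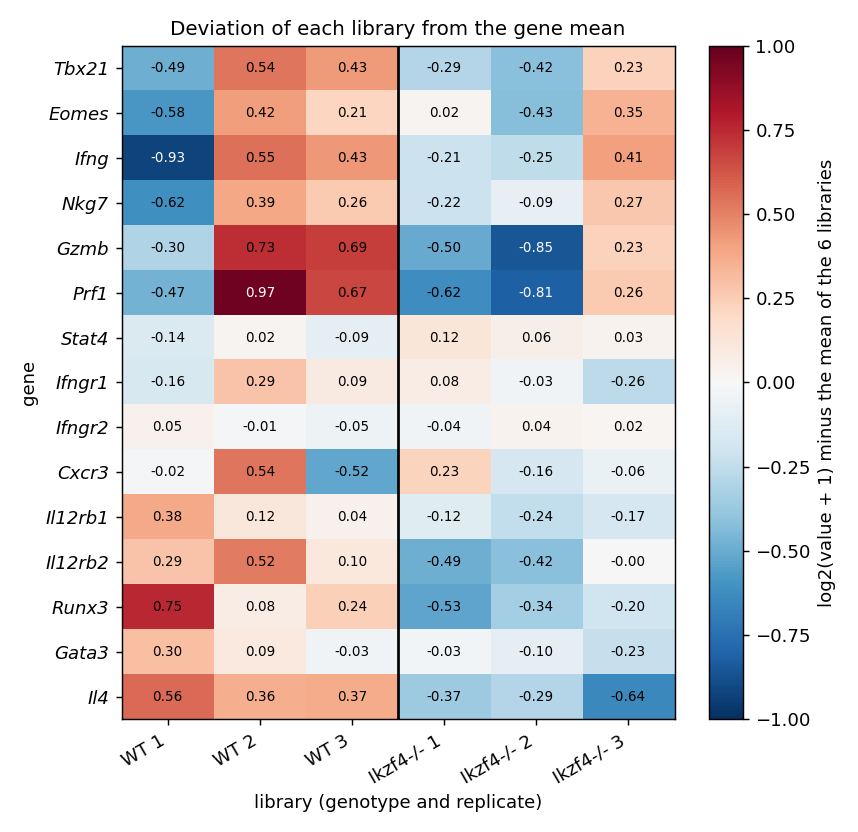
Deviation of each library (columns) from the mean of the 6 libraries, on the log2(value + 1) scale, for the 9 members and 6 other genes (rows), with the value printed in each cell and a black line between WT and Ikzf4-/- libraries. Ifng ranges from -0.93 in WT replicate 1 to 0.55 in WT replicate 2, and Tbx21, Eomes, Nkg7, Gzmb and Prf1 are likewise low in WT replicate 1, whereas Il12rb1 (0.38), Runx3 (0.75) and Il4 (0.56) are highest there.

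Markers of cells that also express Ifng, Tbx21 and Eomes varied between libraries too. Cd8a, Gzma and the sum of the 2 CD8 markers split the libraries as those genes did. They were lower in WT replicate 1 and Ikzf4-/- replicates 1 and 2 than in every other library. Cd8b1 and the gamma delta sum did not split the libraries in this way. Cd8a, a CD8 T cell marker, was at 57.5, 140.2 and 208 in WT cultures and at 33.3, 58.6 and 161 in Ikzf4-/- cultures. Cd8b1 ran only from 179 to 215. Gzma, the 1 of 5 NK cell markers with a row, was at 333, 869 and 963 in WT cultures and at 366, 194 and 526 in Ikzf4-/- cultures. Summed, the 2 CD8 markers ran from 236 to 423 in WT and from 232 to 374 in Ikzf4-/- cells. The gamma delta T cell genes Trdc and Trgv2 summed to 259.7 to 468 in WT and 160.2 to 328 in Ikzf4-/- cells, with Ikzf4-/- replicate 1 (328) above replicate 3 (289). The B cell genes Cd79a and Cd79b summed to 51.1 to 83.6 and 58.6 to 90.4. The part of these cells in the values of Tbx21, Eomes and Ifng, or of the cytotoxic genes Gzmb and Prf1, was not tested.

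The regulatory sequence upstream of 4 members is shown because Il12rb2 separated the genotypes and Tbx21, Eomes and Ifng varied together. Promoter windows from RefSeq (GRCm38.p6, 250 bases before to 50 after a start) matched 8 of the 9 members, with 9 windows. Each run is the part of the window upstream of the outermost start of the RefSeq gene, 5′ to 3′ on the gene's strand. That start is at 67376293 for Il12rb2 and 118478186 for Eomes, further upstream than the GENCODE starts given above, so the Il12rb2 run holds 145 bases and the Eomes run 247. Capitals mark matches to the Ikaros-family core GGGAA, the T-box motif GGTGTGA, the STAT motif TTCNNNGAA or the RUNX motif TGTGGT, on either strand.
Il12rb2, chr6:67376294-67376438, minus strand: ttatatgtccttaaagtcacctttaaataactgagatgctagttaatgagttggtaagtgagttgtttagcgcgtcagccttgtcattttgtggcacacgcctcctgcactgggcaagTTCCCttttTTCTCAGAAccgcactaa
Tbx21, chr11:97115332-97115581, minus strand: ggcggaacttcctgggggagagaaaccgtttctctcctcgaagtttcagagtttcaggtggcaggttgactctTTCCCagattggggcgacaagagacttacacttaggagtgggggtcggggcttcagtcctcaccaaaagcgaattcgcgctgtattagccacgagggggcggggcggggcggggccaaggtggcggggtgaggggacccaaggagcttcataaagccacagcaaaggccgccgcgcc
Eomes, chr9:118477939-118478185, plus strand: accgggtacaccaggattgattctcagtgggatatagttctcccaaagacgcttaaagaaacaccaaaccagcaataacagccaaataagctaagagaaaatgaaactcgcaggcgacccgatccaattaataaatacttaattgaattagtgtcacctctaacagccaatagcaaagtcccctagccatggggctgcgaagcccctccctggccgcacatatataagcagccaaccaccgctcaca
Ifng, chr10:118440796-118441045, plus strand: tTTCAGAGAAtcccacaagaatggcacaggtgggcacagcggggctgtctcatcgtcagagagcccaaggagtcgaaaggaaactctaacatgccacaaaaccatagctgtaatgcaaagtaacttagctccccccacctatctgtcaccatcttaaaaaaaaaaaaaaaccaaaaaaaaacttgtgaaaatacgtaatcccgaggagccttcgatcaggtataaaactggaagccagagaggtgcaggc

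In these runs the Il12rb2 upstream sequence held GGGAA (as TTCCC) and TTCNNNGAA, Tbx21 held GGGAA (as TTCCC), Ifng held TTCNNNGAA at its 5′ end, and Eomes held none of the 4 motifs. Over all 32851 promoter windows of 300 bases, GGGAA occurred in 62.7%, TTCNNNGAA in 8.30%, TGTGGT in 16.8% and GGTGTGA in 3.98%. Among the members not shown, a Stat4 window and the windows of Ifngr2 and Cxcr3 also held GGGAA, and that of Ifngr1 did not. GGGAA is thus found in most windows, and a match describes letters, not binding.

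The Th1 members were then read beside GATA3, the factor that sets the Th2 lineage and opposes T-bet. Gata3 was at 9585, 8304 and 7594 in WT cultures and at 7629, 7251 and 6620.5 in Ikzf4-/- cultures (log2 fold change -0.24, limma adjusted p = 0.146, not called). It was called lower in the authors' deposited table (-0.25, adjusted p = 0.0386), and by limma without WT replicate 3 (-0.32, 0.0491). Without WT replicate 1 the estimate was -0.15 (0.311). The log2 ratio of Tbx21 to Gata3 was -4.60, -3.37 and -3.35 in WT cultures and -4.07, -4.13 and -3.35 in Ikzf4-/- cultures. These ratios of normalized reads, which are not per length, overlapped between genotypes. The log2 ratio of Ifng to Il4, the gene of the main Th2 cytokine, was 1.02, 2.70 and 2.57 in WT and 2.67, 2.55 and 3.57 in Ikzf4-/- cells. It too overlapped, with WT replicate 1 lowest and Ikzf4-/- replicate 3 highest. Its denominator, Il4, was itself lower without Eos, at 427 to 491 in WT and 212 to 271 in Ikzf4-/- cultures (log2 fold change -0.87, limma adjusted p = 0.0144).

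Of 30 further genes of Th1 cells and their signalling, all tested, limma called 1, which was lower, and 29 were not called (1.77% of all genes were called). Their median log2 fold change was -0.03, against 0.00479 over all genes, with 13 estimates above 0 and 17 below (48.7% of all genes were below 0). The called gene was Runx3, which encodes a factor that acts with T-bet on Ifng. It was at 2424, 1519 and 1702 in WT cultures and fell to 997, 1137 and 1258 in Ikzf4-/- cultures (log2 fold change -0.71, limma adjusted p = 0.0436). Each fit without an Ikzf4-/- library lost this call, at log2 fold changes of -0.62, -0.72 and -0.79 (limma adjusted p = 0.123, 0.116 and 0.102) without replicates 1, 2 and 3. It was called in the 3 fits without a WT library and in all 10 settings that kept every library. Without WT replicate 1 its log2 fold change was smaller, at -0.51 (limma adjusted p = 0.0160). The authors' deposited table also called 1 gene of the list as higher, Twist1, a gene known to be expressed in Th1 cells (log2 fold change 0.47, adjusted p = 0.0239 there, and 0.113 with limma), named here after its values were seen.

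Among the genes of this list that were not called, the largest estimates with a mean of at least 50 belonged to Il2, Prf1 and Gzmb. Il2, the gene of the T cell growth factor interleukin-2, was at 1189, 2040 and 2798 in WT cultures and at 3418, 3818 and 3706 in Ikzf4-/- cultures, with no overlap (log2 fold change 0.94, limma adjusted p = 0.0621). Prf1 and Gzmb encode the cytotoxic proteins perforin and granzyme B. Prf1 was at 631, 1717 and 1393 in WT and at 568, 497 and 1049 in Ikzf4-/- cells (log2 fold change -0.78, limma adjusted p = 0.258). Gzmb was at 13071, 26855 and 26051 in WT and at 11400.3, 8928 and 18963 in Ikzf4-/- cells (-0.75, 0.200). Both overlapped through WT replicate 1, and both were called without that library, at -1.21 (limma adjusted p = 0.0170) and -1.09 (0.0182). The same fit called Il2 at a smaller log2 fold change of 0.61 (0.0106), and without WT replicate 3 Il2 was called at 1.23 (0.0107). These fits called 4 and 3 genes of the list, where 269 and 523 genes were called in all.

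Genes known to be induced by interferon gamma were read next. The medium held an antibody against interferon gamma, and whether their values reflect signalling through its receptor was not tested. Of 27 listed, 24 had a row and passed the filter. Limma called 7 of them, 6 as lower and 1 as higher without Eos, beside 1.20% and 0.572% of all genes. Of the 24 estimates 21 were below 0, beside 48.7% of all genes. Their median log2 fold change was -0.22, against 0.00479 over all genes. Irf1 is also on the list of further Th1 genes and was not called (log2 fold change -0.16). The lower genes were Gbp4 and Igtp, which encode interferon-inducible GTPases, Ifi47 and Tgtp1 of the same kind, Psmb8, a subunit of the immunoproteasome, and Socs1, an inhibitor of interferon gamma signalling. Gbp4 fell from 2020.5, 1984 and 1667 in WT cultures to 1370, 1380 and 1341 in Ikzf4-/- cultures (log2 fold change -0.47, limma adjusted p = 0.0237).

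Ifi47 averaged 3119 ± 148 in WT and 2413 ± 186 in Ikzf4-/- cultures (SD, n = 3 each), a fall estimated at -0.37 on the log2 scale (limma adjusted p = 0.0258). Psmb8 averaged 14269 ± 616 and 12115 ± 334 (SD, n = 3 each), a fall estimated at -0.24 (0.0372). Socs1 (-0.37), Igtp (-0.31) and Tgtp1 (-0.51) were called at adjusted p-values of 0.0375, 0.0403 and 0.0494. Tgtp1 has the near-identical neighbour Tgtp2 (log2 fold change -0.23, not called), and how reads shared by them were counted is not given in the sources used here, so its value is uncertain. The higher gene was Gbp2b, at 3.19, 2.70 and 11.6 in WT cultures and at 522, 18.8 and 928 in Ikzf4-/- cultures (log2 fold change 5.20, limma adjusted p = 0.0490), a family member whose reads may also be shared with close relatives. Its WT mean of 5.85 was under the filter of 10, so Gbp2b passed only through the Ikzf4-/- libraries and its call does not count as support. With a minimum of 10 in every library Gbp2b was not tested, and the targets then gave 5 calls, all lower. The largest estimates that were not called were those of Gbp6 (-0.37), Gbp2 (-0.35) and Iigp1 (-0.33). Without WT replicate 1, Gbp2 (-0.52, limma adjusted p = 0.0101) and Iigp1 (-0.75, 0.0163) were called and Gbp6 was at -0.62 (0.166). Without WT replicate 2 they were at -0.20, -0.054 and -0.18 and none was called. Iigp1 was also smaller without WT replicate 3 (-0.17) and without Ikzf4-/- replicate 1 (-0.19).

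The count of called targets depended on single libraries. It was 11, all lower, without WT replicate 1, where 269 genes were called in all. It was 0 without WT replicate 2 (75 genes in all), 6 without WT replicate 3 (523), 0 without Ikzf4-/- replicate 1 (48), 2 without Ikzf4-/- replicate 2 (112) and 1 without Ikzf4-/- replicate 3 (20). Over these 6 fits the log2 fold change of Gbp4 ran from -0.55 to -0.42 and that of Ifi47 from -0.43 to -0.32. Tgtp1 was called in 5 of the 10 settings that kept all libraries and Igtp in 9, the exception being equal library totals (adjusted p = 0.0552). Gbp2b lost its call with quantile scaling (0.0507) and a pseudocount of 10 (0.0630), and was called in 2 of the 6 fits without 1 library. Without adjustment 12 of the 24 had a p under 0.05, beside 18.1% of all genes, and the authors' deposited table called 8, beside 6.34% of its genes. The lists were drawn up with earlier results of these libraries known, so the counts describe them and are not independent evidence of a direction.

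**Figure D4:**
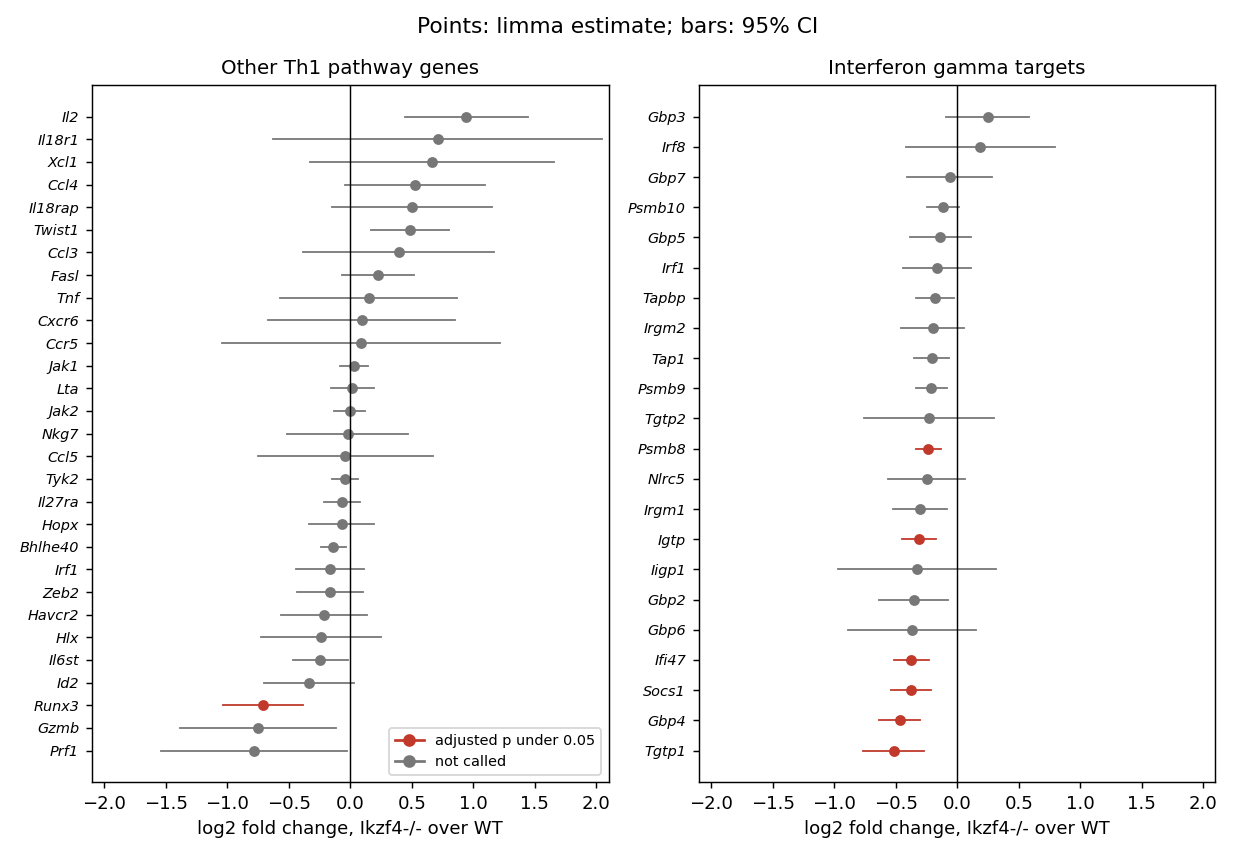
Limma log2 fold change (Ikzf4-/- over WT) with 95% confidence interval for 29 of the 30 further Th1 genes (left) and the interferon gamma targets (right), sorted by estimate, with called genes in red. Gbp2b, at 5.20, lies off the axis and is not drawn. Estimates of the targets lie mostly below 0, and those of the further Th1 genes lie on both sides.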

How the data were processed

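The authors deposited 1 table of 14868 genes with Ensembl identifiers, sample columns, and their own log2 fold changes, p-values and adjusted p-values. The sample columns the authors deposited hold a never-negative signal, read here as read counts normalized by a size factor, because every value under 60 was a multiple of its library's smallest unit to within 0.02 reads. The submitters' processing notes name Trimmomatic 0.36, STAR 2.5.2b and DESeq2 and the builds GRCm38 and mm10. The counting tool, its use of strand and the annotation are not given in the sources used here. No count test was run: in Ikzf4-/- replicates 1 and 3 that unit was too close to 1 for whole reads to be accepted.

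The test used log2(value + 1), which understates the change of low genes, for the 14864 genes averaging at least 10. Genotype was the only term in limma 3.58.1 (R 4.3.3; variance trend, two-sided, Benjamini-Hochberg over all genes). The procedure was tested on simulated data with the same dispersion for every gene, taken from the typical spread. The members had a median SD of log2 values of 0.357, against 0.136 over all genes. That test therefore does not cover the most variable of them. Alternatives were 3 scalings, 2 filters, 2 pseudocounts, array weights, a block for replicate number, fits without each library, and the authors' calls. Positions and exon lengths are from GENCODE M21 (GRCm38). Named genes were Ikzf4, the 9 members, Gata3, list genes that were called plus the 3 largest uncalled estimates per list, and the 3 genes most like Tbx21 and Ifng. Markers are named from fixed lists, and Irf1, Tgtp2, Twist1 and Il4 were added for context. Some list genes are counted but not reported here. The members and lists were chosen with earlier results of these data known.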

Additional observations from a re-analysis of the deposited data

How the results depend on the processing

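The count of called members, 0 with limma, was 1 (Il12rb1) with quantile scaling, upper quartile scaling, a minimum of 10 in every library or a pseudocount of 10, and 2 (Il12rb1 and Il12rb2) with array weights and in the authors' deposited table. Without 1 library it ran from 0 to 2. Each such call was lower in Ikzf4-/- cells, and no setting called a member higher. Called genes over the whole table numbered 482 with array weights, 815 in the authors' deposited table and 20 to 523 without 1 library, against 263. The further Th1 genes gave 2 with array weights and 2 in the authors' table, 1 higher and 1 lower in each, against 1 lower, and 0 to 4 without 1 library. The interferon gamma targets gave 5 to 10 under the settings that kept all libraries, and 0 to 11 without 1 library. With the replicate number as a block, 754 genes, 2 members (Il12rb1, adjusted p = 0.0120, and Il12rb2, 0.0450), 3 further Th1 genes (2 higher, 1 lower) and 8 targets were called. The deviations of same-numbered libraries correlated at 0.145, 0.0122 and 0.142, so no pairing by number was assumed.

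Directions turned only for members near 0. Cxcr3 was at 0.0025 with upper quartile scaling and 0.025 with equal library totals. Without 1 library, the log2 fold change ran from -0.26 to 0.27 for Cxcr3, from -0.34 to 0.17 for Eomes, from -0.51 to 0.23 for Ifng and from -0.0091 to 0.041 for Ifngr2. Of 144 values of members under alternatives, 117 kept direction and call, 13 gained a call and 14 turned. The cause was not tested. Groups of 3 limit the precision: intervals for Ifng, Eomes, Cxcr3 and Tbx21 span changes in both directions.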

Other observations

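In the list of sample sex genes, Ddx3y, Eif2s3y, Kdm5d and Uty, all on the Y chromosome, were present in all 6 libraries, with Ddx3y between 2375 and 2818. Xist, the RNA of the inactive X chromosome, was at 0.971 to 4.26 in 4 libraries and at 85.8 and 110.5 in Ikzf4-/- replicates 2 and 3.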
